A study of Homo sapiens with 6 samples.

Results

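The 42 genes described here encode proteins that copy the genome and make the deoxynucleotides for it. They were chosen by gene name and function, not by their values, though with earlier results of these data known. They comprise 16 genes of origin licensing and the replicative helicase (MCM2 to MCM7, MCM10, CDC6, CDT1, ORC1, ORC6, GINS1 to GINS4 and CDC45), 6 of the sliding clamp and its loader (PCNA, RFC1 to RFC5), and 8 of the polymerases and primase (POLA1, POLA2, POLD1, POLD3, POLE, POLE2, PRIM1, PRIM2). The others are 3 subunits of the single-strand binding protein RPA, the flap nuclease FEN1 and the ligase LIG1, the regulators E2F1, E2F2 and UHRF1, and 4 enzymes of nucleotide synthesis (RRM1, RRM2, TYMS, TK1). All 42 were found among 23834 genes, and all 42 were among the 12337 genes that reached 1 FPKM in at least 1 library. FPKM is a fragment count scaled to transcript length and to the mapped fragments of the library, and a gene's level is the sum over its isoforms.

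The study sequenced polyA RNA of B cell lymphoma lines made resistant to idelalisib, an inhibitor of the kinase PI3K delta, or to ibrutinib, an inhibitor of the kinase BTK. DAUDI is a line from Burkitt lymphoma and DOHH2 a line from follicular lymphoma, both from a public repository. Each line gave 3 libraries: cells labelled WT, idelalisib-resistant cells and ibrutinib-resistant cells. Each group is therefore 1 library of 1 culture, and the drug dose, the time under drug and the presence of drug at harvest are not stated in the labels. With 1 library per group no comparison of a single pair of libraries has a replicate error or a p-value. For such pairs a gene was called higher or lower when log2(FPKM + 1) differed by at least 1, about a 2-fold change for well expressed genes and a larger one for weakly expressed genes, whose change this scale understates.

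Before a cell copies its DNA, ORC, CDC6 and CDT1 load the ring of MCM2 to MCM7 onto origins, and CDC45 and GINS turn that ring into an active helicase at the start of S phase. Primase and polymerase alpha then start each strand, RFC loads the PCNA clamp that holds polymerases delta and epsilon, RPA covers the exposed single strands, and FEN1 and LIG1 join the fragments of the lagging strand. Many of these genes are transcribed together at the G1 to S boundary by E2F factors released from the retinoblastoma protein, and E2F1 and E2F2 are themselves among those targets.

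Promoter letters are shown for CDT1, GINS2, E2F1 and E2F2, because these 4 members rose in the fit across both lines described below and hold a word of the E2F consensus. Each sequence is the 250 bases before the annotated start, 5′ to 3′ on the gene's strand, from RefSeq on GRCh38.p14. Capitals mark the E2F words, which were TTTCCCGC, TTTGGCGC, TTTCGCGC and TTTGCCGC on either strand, with overlapping words counted as 1 site. The windows are chr16:88803539-88803788 on the plus strand for CDT1, chr16:85688955-85689204 on the minus strand for GINS2, chr20:33686386-33686635 on the minus strand for E2F1 and chr1:23531234-23531483 on the minus strand for E2F2.
CDT1: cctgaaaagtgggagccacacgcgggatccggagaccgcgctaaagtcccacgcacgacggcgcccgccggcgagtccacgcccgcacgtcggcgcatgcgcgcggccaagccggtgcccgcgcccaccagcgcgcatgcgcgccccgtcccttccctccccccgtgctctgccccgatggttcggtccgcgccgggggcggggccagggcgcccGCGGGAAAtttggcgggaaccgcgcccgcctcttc
GINS2: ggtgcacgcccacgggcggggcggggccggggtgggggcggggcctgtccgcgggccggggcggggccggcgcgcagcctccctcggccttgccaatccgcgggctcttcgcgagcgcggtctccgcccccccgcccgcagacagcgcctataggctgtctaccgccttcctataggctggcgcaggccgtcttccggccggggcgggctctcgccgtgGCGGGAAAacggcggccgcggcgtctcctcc
E2F1: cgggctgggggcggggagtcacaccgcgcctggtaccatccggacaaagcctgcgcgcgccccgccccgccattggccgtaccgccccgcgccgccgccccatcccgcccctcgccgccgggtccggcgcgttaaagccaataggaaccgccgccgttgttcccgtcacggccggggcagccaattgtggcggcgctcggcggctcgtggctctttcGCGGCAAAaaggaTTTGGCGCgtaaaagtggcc
E2F2: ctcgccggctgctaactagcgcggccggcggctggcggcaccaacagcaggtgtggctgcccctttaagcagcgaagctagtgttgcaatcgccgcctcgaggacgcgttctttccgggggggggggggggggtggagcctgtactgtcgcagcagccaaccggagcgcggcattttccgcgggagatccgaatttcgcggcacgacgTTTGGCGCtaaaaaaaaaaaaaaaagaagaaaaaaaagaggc
The word begins 35 bases before the start in CDT1, 31 before it in GINS2 and 42 before it in E2F2. E2F1 holds 2 sites that begin 33 and 20 bases before the start. For E2F2 the bases after the start were not found in a GENCODE transcript of the gene, so its position is less certain. For CDT1, GINS2 and E2F1 they were found. In windows of 300 bases, with 50 bases after the start added, an E2F word was found in 20 of the 36 members with an entry (55.6%), beside 6.82% of the 8939 tested genes and 3.99% of all 27305 genes with an entry. TTTCCCGC was in 10 of the 36 members, TTTGGCGC in 8, TTTCGCGC in 6 and TTTGCCGC in 1. By role, the word was present in 9 of 13 licensing and helicase genes, 4 of 7 polymerase and primase genes, 2 of 6 clamp and loader genes, all 3 of E2F1, E2F2 and UHRF1, 1 of 4 nucleotide enzymes (TYMS) and LIG1, but not in FEN1 or RPA1. The pentamer CCAAT, searched on both strands, was in 22 of the 36 members (61.1%) and in 43.9% of tested genes. A list of 30 genes of mitosis held another mix, with the E2F word in 12.5% and CCAAT in 83.3% of the 24 genes with an entry. A match describes the letters of the window and is not a binding site that these data measured. MCM4, MCM5, GINS4, POLD3, RPA2 and RPA3 had no entry.

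**Figure D1:**
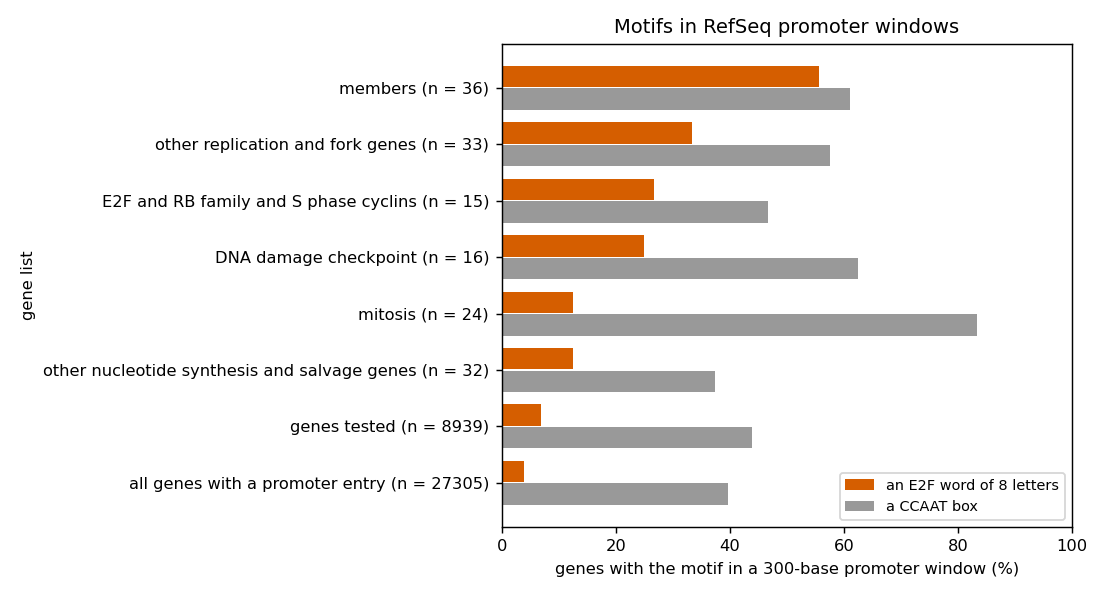
Share of genes (horizontal axis, percent) whose promoter window holds an E2F word of 8 letters (orange bars) or a CCAAT (grey bars), for the members, the other gene lists and all genes; n is the number of genes with a RefSeq entry. The members have the longest orange bar at 55.6%, and mitosis genes have the longest grey bar at 83.3%.

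The libraries labelled WT did not group with the line on their label, and this bears on every comparison with them. Across 12186 genes, log2(FPKM + 1) of both libraries labelled WT correlated at r = 0.991, and only 60 of these genes differed by at least 1. Each correlated with the resistant libraries of its own line at 0.722 to 0.737, while resistant libraries of different lines correlated at 0.838 to 0.856. The resistant pair of DAUDI correlated at 0.980 and that of DOHH2 at 0.992. A difference between a resistant library and the library labelled WT therefore cannot be told apart from a difference between cell sources. Relative depth, from the deposited coverage per FPKM, was 0.936 to 1.04 of the DAUDI library labelled WT in the other libraries except ibrutinib-resistant DAUDI, at 1.42. All 8 B cell markers reached 1 FPKM in every library, with a summed level of 1070 to 1720 FPKM. Of the markers of other cells, the 10 of T and NK cells summed to 1.48 to 7.64 FPKM, and CD4 and NKG7 or CD3E led them. The 10 myeloid markers summed to 16.3 and 20.9 FPKM in the libraries labelled WT, led by CD68, and to 28.1 to 32.3 in the resistant ones, led by LYZ in DAUDI and CD33 in DOHH2. The 10 stromal and epithelial markers summed to 27.7 and 28.5 FPKM in the libraries labelled WT, nearly all CDH1, and to 2.56 to 7.51 in the resistant ones. The 5 erythroid markers summed to 7.46 FPKM in the DOHH2 library labelled WT and to at most 0.145 elsewhere. Listed at 0 were 4 to 7 of the T and NK cell markers, 2 to 6 of the myeloid, 1 to 7 of the stromal and epithelial and 0 to 5 of the erythroid markers. The part of such cells in the differences below was not tested.

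Every member was above 1 FPKM in all 6 libraries, and none was listed at 0. The median member stood at 11.2, 11.7 and 14.9 FPKM in DAUDI labelled WT, idelalisib-resistant and ibrutinib-resistant, and at 9.95, 12 and 15.9 FPKM in DOHH2 in the same order. Ibrutinib-resistant DOHH2 held the highest level of 20 of the 42 members and the lowest of none. The highest level of 12 members was in ibrutinib-resistant DAUDI and that of 7 in DAUDI labelled WT, and the other 3 libraries had 1 each. The lowest level of 16 members was in DOHH2 labelled WT and that of 14 in idelalisib-resistant DAUDI. These counts were not made over all tested genes, so they cannot be read as particular to the members. In bulk RNA a smaller share of cells in S phase and less RNA in each such cell cannot be told apart, and this holds for every level given here.

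**Figure D2:**
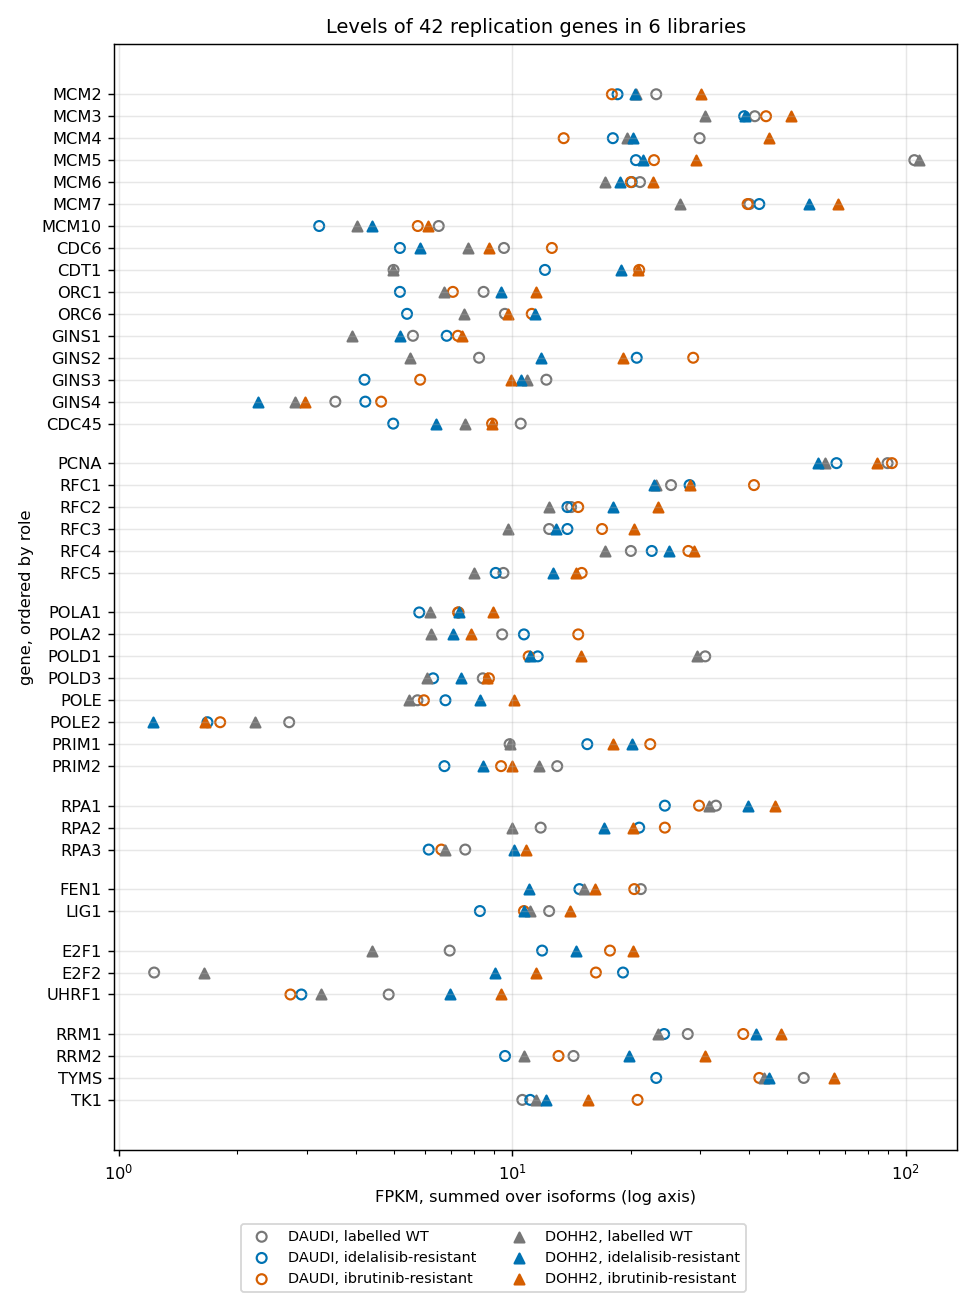
FPKM of the 42 genes (log axis) in DAUDI (open circles) and DOHH2 (filled triangles), labelled WT in grey, idelalisib-resistant in blue and ibrutinib-resistant in orange; each point is 1 library, genes are grouped by role, and there are no error bars because there are no replicates. MCM5 stands apart at 105 and 108 FPKM in both libraries labelled WT, and the orange triangle is the rightmost point for 20 genes.

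Subunits that work in 1 complex did not lie at 1 level. Of the 6 subunits of the MCM ring, the highest was 4.95 times the lowest in DAUDI labelled WT and 6.27 times in DOHH2 labelled WT, where MCM5 led. In the 4 resistant libraries this ratio was 2.35 to 3.27, with MCM7 or MCM3 highest and MCM4 or MCM6 lowest. Among the 4 GINS subunits, which sit in the complex in equal number, GINS3 was highest in both libraries labelled WT (12.2 and 10.9 FPKM), and GINS2 was highest in all 4 resistant libraries (11.8 to 28.8 FPKM). The large subunit RRM1 of ribonucleotide reductase stood above the small subunit RRM2 in every library, by 1.56 to 2.95 times, although the main RRM2 isoform carries the deposited status LOWDATA in all 6 libraries. RFC1 or RFC4 was the highest of the 5 clamp loader subunits in each library.

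The first comparison asks how resistant cultures differed from cells labelled WT. In both lines the resistant libraries held more E2F2, CDT1, GINS2 and E2F1 and less MCM5 and POLD1, while most members differed by less than the calling threshold. In DAUDI 3 of the 42 members were called higher and 4 lower under idelalisib resistance, where 15.3% of all tested genes were called higher and 15.8% lower. Under ibrutinib resistance 5 members were called higher and 3 lower, beside 20.2% and 14.6% of all genes. Both counts are below those backgrounds. In DOHH2 4 members were higher and 2 lower for idelalisib, beside 16% and 15.7% of all genes. For ibrutinib 9 were higher and 1 lower, beside 14.9% and 15.7%, so that here more members were higher than lower while all genes were split nearly evenly. At a lower threshold of 0.5, DAUDI had 6 members higher and 14 lower for idelalisib (29.4% and 27% of all genes) and 10 higher and 5 lower for ibrutinib (36.3% and 23.9%). DOHH2 had 16 higher and 3 lower for idelalisib (31.2% and 25%) and 24 higher and 2 lower for ibrutinib (29.4% and 25.8%). The median member difference was -0.28 and 0.04 in DAUDI for idelalisib and ibrutinib, beside 0.05 and 0.18 over all tested genes, and 0.29 and 0.56 in DOHH2, beside 0.08 and 0.03. The DAUDI median for ibrutinib changed sign on rescaling, to -0.19 by the median of ratios and -0.09 by the upper quartile, so it has no settled direction. The DOHH2 median for idelalisib was 0.13 by the median of ratios and 0.23 by the upper quartile. Both drugs of a line are compared with the same library labelled WT, so their differences are not independent of each other. Where all resistant libraries are said below to lie on 1 side of both labelled WT, the share of all tested genes doing so was not counted.

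Among the licensing genes, CDT1 (hg19 chromosome 16, 88870186 to 88875666), which brings the MCM ring to origins and is destroyed once S phase begins, was at 4.99 FPKM in DAUDI labelled WT, 12.1 in idelalisib-resistant and 21.0 in ibrutinib-resistant DAUDI. In DOHH2 it was at 4.97, 18.9 and 20.8 FPKM in the same order. All 4 resistant libraries lay above both libraries labelled WT, by 2.42 to 4.21 times within a line. GINS2 (chromosome 16, 85711280 to 85722588), a subunit of the active helicase, was at 8.23, 20.7 and 28.8 FPKM in DAUDI and 5.50, 11.8 and 19.1 in DOHH2. Its groups did not overlap either, and in each line the ibrutinib-resistant library was the highest.

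MCM5 (chromosome 22, 35796116 to 35820495), a subunit of the MCM ring, went the other way, at 105, 20.6 and 22.9 FPKM in DAUDI and 108, 21.5 and 29.2 in DOHH2. The resistant libraries held 0.197 to 0.271 of the level labelled WT, and none of the other 5 ring subunits was called lower in both lines. MCM4 was at 29.9, 18.0 and 13.5 FPKM in DAUDI and 19.5, 20.2 and 44.8 in DOHH2, so that the ibrutinib-resistant library was the lowest in DAUDI and the highest in DOHH2. MCM7 was at 40.0, 42.4 and 39.6 FPKM in DAUDI and 26.6, 56.6 and 67.2 in DOHH2, where both resistant libraries were called higher. MCM2, MCM3 and MCM6 were not called in any of these comparisons, with differences of -0.36 to 0.70. GINS3 was called lower in idelalisib-resistant DAUDI alone (12.2 to 4.21 FPKM).

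Of the polymerase genes, POLD1 (chromosome 19, 50887580 to 50921275), the catalytic subunit of polymerase delta, was at 30.9, 11.6 and 11.0 FPKM in DAUDI and 29.5, 11.1 and 14.9 in DOHH2. Every resistant library lay below both labelled WT, and the difference of -0.94 in ibrutinib-resistant DOHH2 stopped short of a call. PRIM1, the catalytic subunit of primase, was at 9.84, 15.5 and 22.4 FPKM in DAUDI and 9.89, 20.1 and 18.0 in DOHH2, above both libraries labelled WT in all 4 resistant libraries. Its partner PRIM2 was below both libraries labelled WT in all 4, at 6.72 to 9.96 FPKM against 11.7 and 13.0. None of the clamp and clamp loader genes was called. PCNA, the highest of this group, was at 89.8, 66.6 and 92.1 FPKM in DAUDI and 62.2, 59.7 and 84.2 in DOHH2, with resistant and labelled WT libraries overlapping. RFC3 came closest to a call, just under the threshold in ibrutinib-resistant DOHH2 (9.73 against 20.4 FPKM).

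RPA2, the middle subunit of RPA, was at 11.8, 21.0 and 24.4 FPKM in DAUDI and 10, 17.1 and 20.2 in DOHH2, with no overlap between resistant and labelled WT libraries. RPA1 and RPA3 did overlap, and the share of all tested genes without overlap was not counted. FEN1 and LIG1 were not called, with differences of -0.54 to 0.31.

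The regulator E2F2 (chromosome 1, 23832920 to 23857712), an activating E2F, had the largest difference of any member, 3.17 in idelalisib-resistant DAUDI. It was at 1.23, 19.1 and 16.3 FPKM in DAUDI, and DOHH2 had 1.65, 9.01 and 11.5 FPKM, which is 5.48 to 15.5 times the level labelled WT. E2F1 (chromosome 20, 32263292 to 32274210), its close relative, was at 6.93, 11.9 and 17.7 FPKM in DAUDI and 4.40, 14.5 and 20.2 in DOHH2. For both genes every resistant library was above both libraries labelled WT. UHRF1, which helps copy DNA methylation onto new strands, was lower in both resistant DAUDI libraries and higher in both resistant DOHH2 libraries, at 4.85, 2.91 and 2.73 FPKM in DAUDI and 3.27, 6.94 and 9.33 in DOHH2.

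Among the nucleotide enzymes, TYMS, which makes thymidylate, was at 55, 23.2 and 42.4 FPKM in DAUDI and 43.6, 44.9 and 65.5 in DOHH2, and was called lower in idelalisib-resistant DAUDI. RRM2 was at 14.3, 9.58 and 13.1 FPKM in DAUDI and 10.7, 19.8 and 30.8 in DOHH2, with a call only in ibrutinib-resistant DOHH2. RRM1 was called there too, at 48.2 against 23.5 FPKM. TK1, the salvage kinase of thymidine, was not called, and its highest level was in ibrutinib-resistant DAUDI at 20.8 FPKM, against 10.6 to 15.6 in the other libraries.

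**Figure D3:**
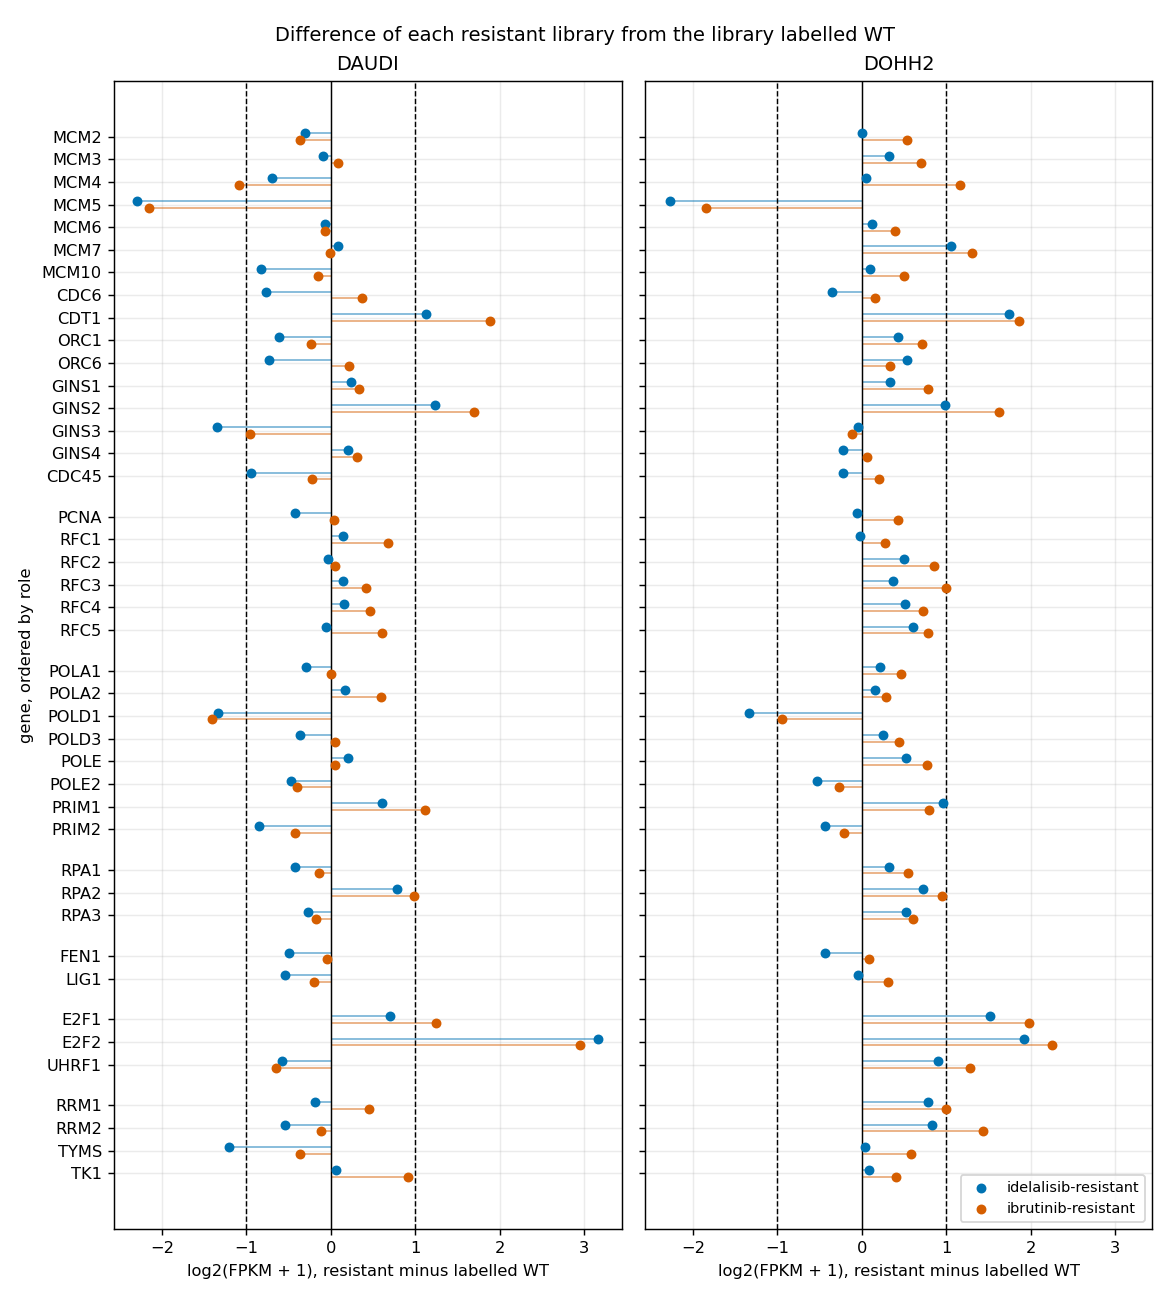
Difference in log2(FPKM + 1) between each resistant library and the library labelled WT of its line (horizontal axis), idelalisib-resistant in blue and ibrutinib-resistant in orange, DAUDI left and DOHH2 right; dashed lines mark the calling threshold of 1 and there is 1 library per point, without error. CDT1, E2F1, E2F2 and GINS2 lie right of 0 and MCM5 and POLD1 left of 0 in both panels, while UHRF1 and RRM2 change side between lines.

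The only test over samples of resistant against labelled WT is a linear model in which the 2 lines stand in as replicates and the line is a block. It was fitted with limma on all 12337 genes with 2 residual degrees of freedom, and p-values were adjusted by Benjamini-Hochberg over all of them. In it 8 of the 42 members passed an adjusted p of 0.05 (19.0%), beside 27.3% of all tested genes. Of these, 6 rose (14.2% of all genes rose) and 2 fell (13.1% fell). E2F2 rose by 2.57 ± 0.31 (SE; limma adjusted p = 0.0129), CDT1 by 1.65 ± 0.21 (0.0139), GINS2 by 1.38 ± 0.15 (0.0104) and E2F1 by 1.36 ± 0.24 (0.0274) on the log2 scale. PRIM1 rose by 0.87 ± 0.20 (limma adjusted p = 0.0445) and RPA2 by 0.86 ± 0.13 (0.0208). MCM5 fell by 2.14 ± 0.14 (limma adjusted p = 0.00465) and POLD1 fell by 1.25 ± 0.18 (0.0169). The block assumes that the lines differ alike in every state. Yet the libraries labelled WT correlated at 0.991 across lines, and the resistant libraries at 0.838 to 0.856. The libraries labelled WT may therefore not be 2 independent replicates, and the adjusted p-values carry this limit. These calls also rest on few libraries. Without idelalisib-resistant DAUDI, ibrutinib-resistant DAUDI or idelalisib-resistant DOHH2 no member passed, and without ibrutinib-resistant DOHH2 1 passed, a fall. Without DOHH2 labelled WT 4 rose and 2 fell, and without DAUDI labelled WT 6 rose and 1 fell. CDT1, GINS2, E2F1 and E2F2 were among the 6. All 8 genes named above kept their direction in each of these fits. Without the filter on low values 3 members passed: GINS2 and RPA2 rose and MCM5 fell. Of the members that passed and have a promoter entry, 4 of 6 held an E2F word (66.7%), beside 16 of 30 of those that did not pass (53.3%).

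The second comparison sets the resistant cultures of 1 line against each other, which leaves out the libraries labelled WT. In DOHH2 nearly all replication genes stood slightly higher in the ibrutinib-resistant than in the idelalisib-resistant library, by a median of 0.31 on the log2 scale, where the median of all tested genes was -0.02. Of the 42 members, 39 were above 0, beside 39.3% of all tested genes. The exceptions were ORC6 (-0.21), PRIM1 (-0.15) and GINS3 (-0.08). Only MCM4 reached the calling threshold, at 1.11 (20.2 against 44.8 FPKM), where 0.665% of all genes were called higher and 0.413% lower. At the lower threshold of 0.5, 8 members were higher and none lower (2.76% and 2.08% of all genes): MCM4, GINS2 (0.65), RFC3 (0.62), RRM2 (0.61), MCM2 (0.53), TYMS (0.53), FEN1 (0.52) and CDC6 (0.51). Rescaling the libraries by the median of ratios or by the upper quartile left 39 members above 0, beside 49.3% and 47.6% of all genes.

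The higher levels in DOHH2 spanned the roles. The median was 0.39 over the 16 licensing and helicase genes, 0.32 over the 6 clamp and loader genes, 0.23 over the 8 polymerase and primase genes, and 0.43 over the 4 nucleotide enzymes. The sum over the MCM ring was 176.5 FPKM in the idelalisib-resistant and 245.0 in the ibrutinib-resistant library, and PCNA was at 59.7 and 84.2 FPKM. These are single libraries, and the size of a difference between repeat cultures was not measured.

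In DAUDI 34 of 42 members were higher in the ibrutinib-resistant library, but so were 70% of all tested genes, and this library was the deepest of the 6. The member median was 0.36, beside 0.14 over all genes. After rescaling by the median of ratios the count was 28 of 42 beside 53.8% of all genes, and by the upper quartile 28 beside 52.2%, with member medians of 0.21 and 0.20. Only CDC6, which loads the MCM ring, was called, at 1.13 (5.18 against 12.6 FPKM), beside 2.2% of all genes called higher and 1.31% lower, and after either rescaling it was not. At the threshold of 0.5, 12 members were higher and none lower, beside 13.4% and 3.38% of all genes. The nucleotide enzymes were among the higher ones, with TK1 at 0.85, TYMS at 0.84 and RRM1 at 0.65. The 8 members below 0 were E2F2, UHRF1, POLD1, POLE, MCM2, MCM4, MCM6 and MCM7, of which 4 are subunits of the MCM ring. MCM4 differed most between the lines, at -0.39 in DAUDI and 1.11 in DOHH2.

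Counted over both lines, 31 of the 42 members (73.8%) were higher in the ibrutinib-resistant library of each line, beside 27.3% of all tested genes. In limma no member passed for ibrutinib against idelalisib, where 1 gene of 12337 passed (0.00811%, lower; 0% higher), and none passed in a fit of the 4 resistant libraries alone. At an unadjusted p of 0.05 the fit of all 6 libraries held 71 of 12337 genes. Its error also takes in the libraries labelled WT, which did not group with their lines. Among the 71 genes 3 were members: CDC6, with an estimate of 0.82 ± 0.23 (SE), GINS2, with 0.56 ± 0.17, and FEN1, with 0.48 ± 0.16. The estimates of all 42 members lay above 0, beside 64.2% of all genes, with a member median of 0.29 and a median of 0.06 over all genes. Neither this count nor that of 31 members was repeated after rescaling, which lowered the DAUDI count from 34 to 28. The median SE over all genes was 0.24, and most member estimates were less than 2 of their own SE from 0.

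**Figure D4:**
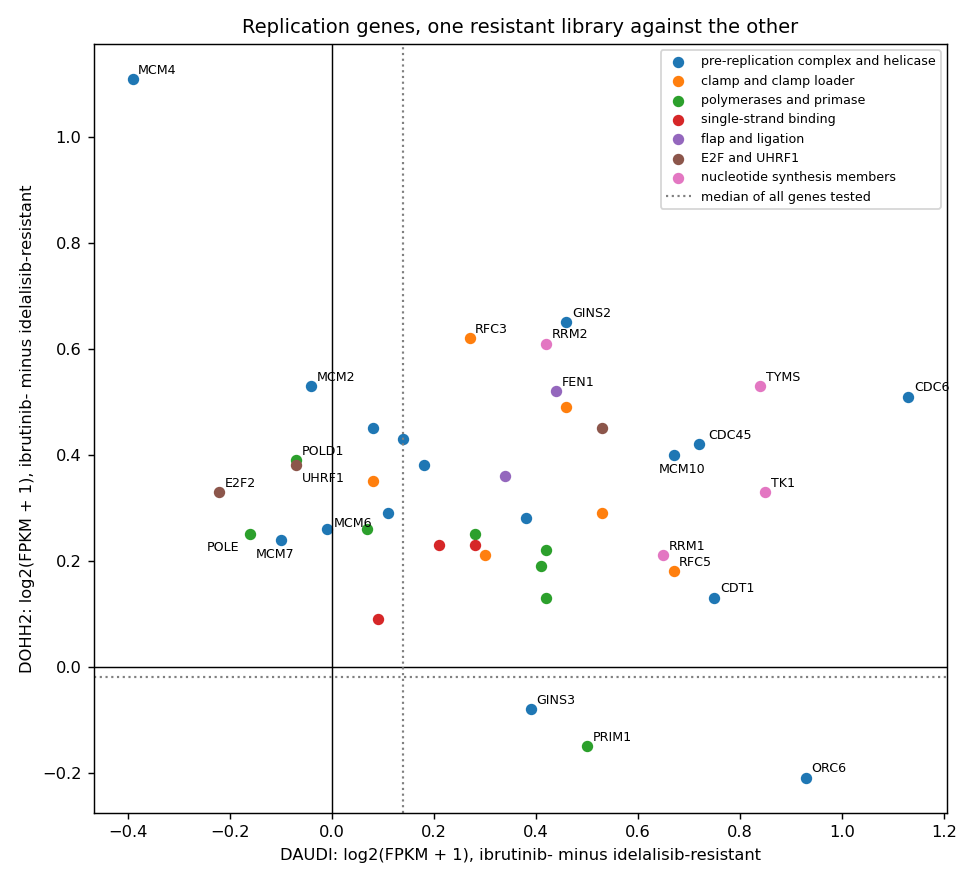
Difference in log2(FPKM + 1) between the ibrutinib-resistant and the idelalisib-resistant library in DAUDI (horizontal axis) and DOHH2 (vertical axis) for the 42 genes, coloured by role; dotted lines mark the median of all tested genes. In DOHH2 39 points lie above 0 and in DAUDI 34 lie right of 0; MCM4 and CDC6 are the only genes past 1, in DOHH2 and DAUDI.

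Lists of related genes outside the 42 had smaller medians in this comparison in DOHH2. Of 40 other replication and fork genes, none was called and 34 were above 0, with a median of 0.14. WDHD1 (0.43), ASF1B (0.36), ATAD5 (0.34) and CLSPN (0.32) had the largest differences. Of 39 other genes of nucleotide synthesis and salvage, 14 were above 0 with a median of -0.07, and NME1, a nucleoside diphosphate kinase, was lowest at -0.45. The 19 genes of the E2F and RB family and S phase cyclins had a median of 0.08, led by SKP2 (0.48) and CCNE2 (0.45). The 20 DNA damage checkpoint genes had a median of 0.17, led by FANCI (0.47) and FANCD2 (0.44). The 30 mitosis genes stood at a median of 0.03, with 17 above and 13 below 0, and the proliferation marker MKI67 was at 19.7 and 22.3 FPKM. In DAUDI the medians were 0.22, -0.01, 0.33, 0.27 and 0.09 for these lists in the same order. There the members had 0.36 and all tested genes 0.14, so the E2F and RB list lay close to the members. The list medians were not recomputed after rescaling. No gene of the 5 lists passed in limma for ibrutinib against idelalisib.

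**Figure D5:**
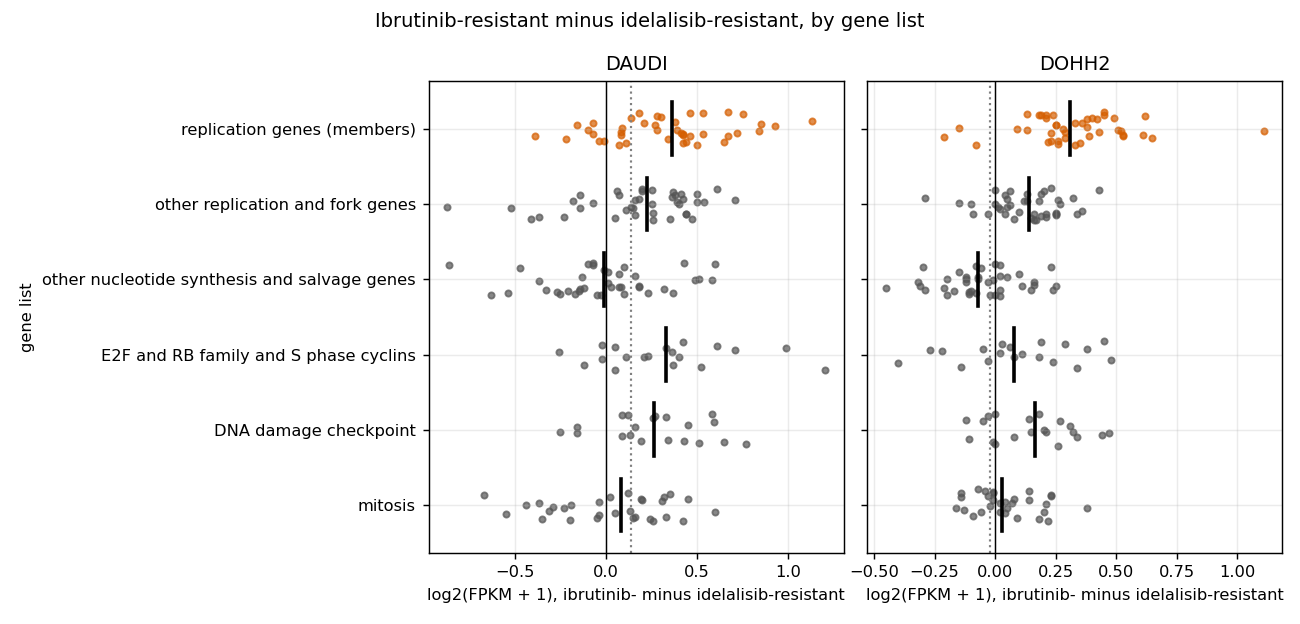
Difference in log2(FPKM + 1), ibrutinib-resistant minus idelalisib-resistant, for each gene of the member list (orange) and of 5 other lists (grey), DAUDI left and DOHH2 right, on axes of different range; black bars are list medians and the dotted line is the median of all tested genes. In DOHH2 the member median of 0.31 is the furthest from the dotted line at -0.02, and the mitosis median is 0.03.

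The third comparison sets DOHH2 against DAUDI in the same state. Among the libraries labelled WT no member was called, beside 0.608% of all genes called higher and 0.486% lower. Only 4 of 42 members were above 0, beside 46.3% of all genes, with a median of -0.25 beside -0.01. At a threshold of 0.5, 7 members were lower in DOHH2 and 0 higher, beside 2.16% and 2.19% of all genes. MCM4 (-0.59), MCM10 (-0.58), MCM7 (-0.57) and E2F1 (-0.56) were lowest. In the idelalisib-resistant libraries GINS3 and UHRF1 were called higher in DOHH2 and E2F2 lower (9.14% of all genes called higher and 9.53% lower), with a member median of 0.23 beside 0.00. In the ibrutinib-resistant libraries MCM4, UHRF1 and RRM2 were called higher, at 1.66, 1.47 and 1.17 (8.31% of all genes called higher and 13.7% lower), and the member median was 0.13 beside -0.11 (0.28 and 0.29 after the rescalings, beside -0.00 and 0.00). At a threshold of 0.5, 10 members were higher and 4 lower with idelalisib (21.6% and 18.8% of all genes), and 12 higher and 4 lower with ibrutinib (17.6% and 28%).

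Taking the resistant cultures of a line as its replicates, limma on the 4 resistant libraries passed 4 members, all higher in DOHH2 (9.52%), beside 27.3% of all genes, 13.1% higher and 14.2% lower. UHRF1 was higher by 1.25 ± 0.19 (SE; limma adjusted p = 0.0241), GINS3 by 0.91 ± 0.19 (0.0445), RPA3 by 0.63 ± 0.12 (0.0376) and MCM7 by 0.58 ± 0.12 (0.0463). UHRF1 was at 2.91 and 2.73 FPKM in the resistant DAUDI libraries and at 6.94 and 9.33 in those of DOHH2. GINS3 was at 4.21 and 5.83 in DAUDI and 10.5 and 9.94 in DOHH2, and RPA3 at 6.13 and 6.60 in DAUDI and 10.1 and 10.8 in DOHH2. The lines did not overlap for any of the 4 genes, but these were picked by the same fit, so this adds no support. Leaving out idelalisib-resistant DAUDI, idelalisib-resistant DOHH2 or ibrutinib-resistant DOHH2 left no call, and leaving out ibrutinib-resistant DAUDI left GINS3. With the drug as a block, which matches the libraries by drug, none of these 4 passed (limma adjusted p from 0.0607 for UHRF1 to 0.108 for RPA3) and 1 other member did. Without the filter on low values no member passed. RPA3 overlaps RPA3-AS1, which was also higher in DOHH2 (4.97 and 6.29 FPKM in DAUDI, 11.9 and 12 in DOHH2), and the labels do not state whether reads were counted by strand.

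The 5 other lists were fitted against the libraries labelled WT in the same limma model, in which 14.2% of all genes rose and 13.1% fell. Of 40 other replication and fork genes 10 rose in limma and none fell. POLD4, the small subunit of polymerase delta, was at 16.7 and 19.5 FPKM in the libraries labelled WT of DAUDI and DOHH2 and at 46.2 to 59.7 in the resistant ones, in contrast to POLD1. CHAF1A, a histone chaperone of the fork, rose by 1.47 ± 0.17 (SE; limma adjusted p = 0.0114) and KIAA0101, a PCNA partner, by 1.26 ± 0.13 (0.00993). Of 39 other nucleotide genes 9 rose and 2 fell. DCTD, the dCMP deaminase that feeds thymidylate synthesis, was at 22.5 and 19.8 FPKM in the libraries labelled WT, at 0.0148 and 0.0652 in resistant DAUDI, and listed at 0 in both resistant DOHH2 libraries. CTPS2, a CTP synthase, was at 9.81 and 8.91 FPKM in the libraries labelled WT, at 0.0218 and 0 in resistant DAUDI, and at 36.4 and 32.3 in resistant DOHH2. DCK, the deoxycytidine kinase, rose by 1.14 ± 0.15 (SE; limma adjusted p = 0.0156).

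Of 19 genes of the E2F and RB family and S phase cyclins 4 rose and 1 fell. E2F5, a repressor E2F, was at 17.1 and 19.3 FPKM in the libraries labelled WT and 74.5 to 86.4 in the resistant ones, and cyclin E1 (CCNE1) was at 6.49 and 4.26 against 1.25 to 1.94. RB1, the retinoblastoma gene, was at 83.4 and 86.2 FPKM in the libraries labelled WT and at 17.2 to 48.5 in the resistant ones. Its estimate of -1.30 ± 0.34 (SE) did not pass (limma adjusted p = 0.0616). In the same list TFDP2 rose by 1.81 ± 0.29 (SE; limma adjusted p = 0.0214). FANCA had the largest difference of the checkpoint list, at 4.74 and 4.51 FPKM in the libraries labelled WT. It was at 47.4 and 50.7 in resistant DAUDI and at 9.96 and 9.74 in resistant DOHH2. Its estimate of 2.05 ± 0.55 (SE) did not pass (limma adjusted p = 0.0654). Of 20 checkpoint genes 5 rose and 1 (BLM) fell, and of 30 mitosis genes 4 rose and 1 (AURKA) fell. These counts stand beside 27.3% of all genes that passed in either direction.

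Isoform shares moved most between libraries in 5 of the members with several isoforms. For 21 members the tables list 1 isoform and for the other 21 several, 76 isoforms in all. The share of an isoform in its gene moved by more than 20 percentage points between libraries in MCM10, ORC1, GINS3, RFC2 and POLE2. How many of all genes with several isoforms moved as much was not counted. MCM10 and POLE2 were weakly expressed, at 3.23 to 6.5 and 1.22 to 2.71 FPKM. In GINS3 the isoform NM_001126130 made up 38.3% and 39.3% of the gene in the libraries labelled WT, 16.8% and 16.4% in resistant DAUDI and 26.2% and 25% in resistant DOHH2, so the states did not overlap. In ORC1 the isoform NM_001190818 was at 26.0% in idelalisib-resistant DOHH2 and at most 3.64% elsewhere. These shares come from the authors' assignment of reads among similar isoforms and carry no replicate error. PCNA, RPA2, RRM2, TYMS, RFC3, RFC5 and FEN1 have named pseudogenes, and TYMS overlaps ENOSF1, so reads of those genes could be divided between copies and their levels are less certain.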

How the data were processed

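PolyA RNA of 6 cultures was sequenced with a directional kit, 1 library per group, per the labels' protocols. Per the submitters' processing notes, bcl2fastq, cutadapt, TopHat2 and Cufflinks were used with hg19 (versions not stated). The deposited tables list FPKM for 43490 isoforms, scaled by the authors to length and mapped fragments. Per the file headers, a coverage signal is listed too, from which relative depth was taken as coverage per FPKM. Read counts were not used here, so no counting interval is given. Here FPKM was summed over isoforms by gene name (528 isoforms without a name were left out), 10 genes with a failed estimate in a library were left out, and log2(FPKM + 1) was compared for genes at 1 FPKM or more in at least 1 library. A pair of libraries was described by a difference of at least 1 without a test. Fits across lines used limma 3.58.1 in R 4.3.3 (empirical Bayes with trend, two-sided, Benjamini-Hochberg, adjusted p under 0.05), checked on simulated data. In the fits of all 6 libraries the line is a block, so the p-values rest on how far differences between states disagree between lines. In the fit of DOHH2 against DAUDI they rest on the spread between resistant cultures of a line. Neither is the spread between repeat cultures of a group. Promoter words were counted in RefSeq windows on GRCh38.p14, matched by symbol for 36 of 42 members, and genes have several windows where RefSeq lists several starts. For 41 of the 47 member windows the bases after the start were found in a GENCODE transcript of the gene. Members and lists were chosen with earlier results of these data known. All members may be named. Within a role, those with the largest difference or highest FPKM are given per library, and up to 4 genes of each other list by size of difference. MKI67 and DCK fall outside that rule and were chosen after their values were seen. Alternatives were the pseudocount, rescaling by the median of ratios or upper quartile, the most abundant isoform, no filter, a threshold of 0.5, no line block and leaving out each library. After the data were seen, a fit without both libraries labelled WT and the counts above 0 were added. Figures were drawn with matplotlib 3.10.9.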

Additional observations from a re-analysis of the deposited data

Results flagged for a closer look

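For 4 members the lines moved apart from their libraries labelled WT, each line by at least 0.5 on the log2(FPKM + 1) scale. With 1 library per group this difference between lines was not tested. Under ibrutinib resistance MCM4 differed by -1.09 in DAUDI and 1.16 in DOHH2, a gap of 2.25, and UHRF1 by -0.65 and 1.28, a gap of 1.92. Under idelalisib resistance UHRF1 differed by -0.58 and 0.90 (gap 1.48), RRM2 by -0.54 and 0.83 (gap 1.36), and ORC6 by -0.73 and 0.54 (gap 1.27). Of all tested genes, 552 (4.47%) moved apart in this way under ibrutinib and 470 (3.81%) under idelalisib, beside 2 and 3 of the 42 members. Between the resistant libraries alone, DOHH2 minus DAUDI was 1.66 for MCM4 and 1.47 for UHRF1 with ibrutinib, and 1.02 for UHRF1, 0.98 for RRM2 and 0.96 for ORC6 with idelalisib.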

How the results depend on the processing

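No recomputed single gene reversed its call under the alternatives run. Counts were sorted only by the size of their change, so a reversal of a count was not looked for. For DAUDI ibrutinib against WT the member median went from 0.04 to -0.19 (median of ratios) and -0.09 (upper quartile). The number of members above 0 there went from 22 to 16 and 17 in the same order. Of 200 recomputed counts of members, 152 stayed within 1.5 times the original and 48 moved, and of 319 recomputed single genes 224 kept their call and 95 lost it. With a pseudocount of 5, members higher fell to 1 (DAUDI idelalisib against WT), 3 (DAUDI ibrutinib against WT), 0 (ibrutinib against idelalisib in each line), 0 with 0 lower (DOHH2 against DAUDI, idelalisib) and 1 (the same, ibrutinib). With 0.1 they were 2 (DAUDI ibrutinib against idelalisib), 7 (DOHH2 idelalisib against WT) and 4 (DOHH2 against DAUDI, idelalisib). Rescaling by the median of ratios or by the upper quartile gave 0 higher for ibrutinib against idelalisib in DAUDI and 1 for DOHH2 against DAUDI with idelalisib. The median of ratios, like the most abundant isoform, gave 2 lower for DOHH2 ibrutinib against WT, and that isoform gave 2 higher for ibrutinib against idelalisib in DAUDI. At a threshold of 0.5, DAUDI had 6 higher and 14 lower (idelalisib against WT), 10 and 5 (ibrutinib against WT) and 12 higher (between drugs). DOHH2 had 16 higher, 24 higher and 2 lower, and 8 higher in that order. DOHH2 against DAUDI had 7 lower labelled WT, 10 higher and 4 lower with idelalisib, and 12 and 4 with ibrutinib. In limma without the filter, 2 rose and 1 fell against WT and 0 differed between lines. With drug as a block, 1 differed between lines. The cause of these changes was not tested. Leaving out a library gave 0 to 6 rising and 0 to 2 falling members, and 0 to 1 between lines. A group left without a library then rests on the other line, whose lone sample is assumed to vary like the others. No replicate block could be fitted, since the labels carry no replicate numbers, and libraries were matched only by line or by drug. Depth limits weakly expressed members most, such as POLE2 at 1.22 to 2.71 FPKM.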
